A study of Drosophila melanogaster with 382 samples.

Results

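Maternal regulators of RNA repression and clearance were followed here across Drosophila embryos: smg, brat, pum, cup, me31B, tral, 4EHP, png, gnu and plu. These 10 genes were taken by symbol from a table of 13587 named genes, and all 10 were found in it. RNA-seq libraries had been made from consecutive cryosections along the anteroposterior axis of single fixed embryos, 1 library per slice, and 338 of 382 labelled slices had values. The 7 zld embryos came from germline clones, in which the mother's germline lacks the transcription factor Zelda, and carried a His2Av-RFP nuclear marker. They were sliced at cycles 11, 13 (3 embryos), 14A, 14B and 14D. The bcd RNAi embryos (2 each at cycles 13 and 14D) and hb RNAi embryos (1 at cycle 13, 2 at 14D) came from mothers in which maternal tubulin Gal4 drove an shRNA, so the depletion was in the germline. The 2.4x bcd embryos (2 each at cycles 13 and 14D) came from a single line carrying an eGFP-Bcd fusion. The 7 wild-type embryos were Canton-S, 1 each at cycles 11, 13, 14A, 14B, 14C, 14D and 14E. TruSeq kits and yeast carrier RNA were used for zld and wild type, and SMARTseq2 without carrier for the other lines, so levels were not compared between these sets. The carrier was Saccharomyces cerevisiae RNA, except for T. delbruckii in wild type at 14B and slices of either kind at 14E. The authors took the wild-type reads from an earlier study and mapped them again. Study thus cannot be told apart from genotype between zld and wild type. The embryo, not the slice, was the replicate.

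The early fly embryo runs on RNA and protein supplied by the mother, and at the maternal-to-zygotic transition many of these RNAs are repressed and degraded while zygotic transcription begins. The Pan Gu kinase acts at egg activation. Its catalytic subunit is encoded by png, gnu and plu encode its activating subunits, and it is needed for translation of smg. Smaug, the smg product, binds hairpins in target mRNAs such as nos and Hsp83 and recruits the CCR4-NOT deadenylase. Brat and Pumilio repress maternal hb, Pumilio together with Nanos. Me31B, an RNA helicase of the DDX6 family, Trailer hitch (tral), an LSM14 family protein, and Cup, a protein that binds eIF4E, form repressive particles with such mRNAs, and 4EHP is a cap-binding protein that blocks translation when Brat or Bicoid brings it to an mRNA.

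Several properties of the libraries bear on every result. Estimated depth was 244900 to 12466600 fragments per slice, with a median of 1101900 in TruSeq and 3530800 in SMARTseq2 libraries, and the zld embryos at cycle 13 had values in only 3, 4 and 5 slices. The cup row had 0 fragments in 2 zld embryos at cycle 13. Apart from it, the fewest estimated fragments behind a member, summed over an embryo, were 11.8 for png (counting error 29.2%), 21 for gnu and 39.6 for brat, each in wild type at 14B, whereas me31B never had fewer than 8100. Long and short transcripts were not recovered alike in all embryos. The log2 level of long transcripts relative to short ones, each against its mean over embryos, was 2.67 in the third zld embryo at cycle 13, 0.09, 0.89 and 0.83 in the zld embryos at 14A, 14B and 14D, and -2.20 in the hb RNAi embryo at cycle 13, against -0.98, -0.71 and -0.86 in wild type at 14A, 14B and 14C and 0.05 at both 14D and 14E. The zld gene itself, listed as vfl, was at 0 to 0.645 FPKM in 6 zld embryos but at 5.01 FPKM in the library labelled zld at 14B, against 2.3 to 10.2 FPKM in wild type. That library was thus unlike the other zld embryos in vfl RNA. Germline clones lack Zelda from the mother, and whether this vfl RNA was zygotic or the library was mislabelled was not tested. Calls between zld and wild type are also given without it. FPKM is a share of the RNA sequenced, so lower RNA per cell and fewer cells that hold it cannot be told apart, nor can loss of an RNA and gain of others.

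The members lie on 5 chromosome arms of the release 6 genome. On 3L are smg (FBgn0016070, 8990317 to 8997989, minus strand), tral (FBgn0041775, 12515059 to 12520954, plus strand) and gnu (FBgn0001120, 14802380 to 14803360, minus strand). On 2L are brat (FBgn0010300, 19133816 to 19179758, plus strand), cup (FBgn0000392, 6663664 to 6674780, plus strand) and me31B (FBgn0004419, 10239341 to 10242172, plus strand). Both members on 3R, pum (FBgn0003165, 9066343 to 9237682) and 4EHP (FBgn0053100, 24063077 to 24108960, now named eIF4EHP), are on the minus strand, as are png (FBgn0000826, chromosome X, 1356488 to 1357601) and plu (FBgn0003114, 2R, 20262958 to 20263684). Transcript length separates them: the median annotated transcript is 616 bases for plu, 923 for gnu and 1114 for png, but 4624 for smg, 4963 for brat and 6735 for pum. The exons of brat overlap those of other genes on the opposite strand, and the libraries were not stranded, so reads in the overlap cannot be assigned. The exons of 4EHP overlap those of Syx1A on the same strand, so the split of reads between these genes is uncertain too.

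The cup row cannot be read as the level of cup, and its values are uncertain throughout. Both annotated cup transcripts share their exons with transcripts of CG34310 on the same strand. The table listed cup at 0 to 5.19 FPKM in every embryo and CG34310 at 88.5 to 341 FPKM. In the transcript table, the long transcripts that both genes share summed to 85.8 TPM in zld at cycle 11, 38.0, 38.7 and 223 TPM at cycle 13, and 14.3, 24.2 and 33.7 TPM at 14A, 14B and 14D, against 35.3, 16.3, 4.43, 6.91, 3.88, 15.8 and 6.73 TPM in wild type at cycles 11, 13, 14A, 14B, 14C, 14D and 14E. Each shared transcript enters these sums under both gene names, with equal TPM. The sums are in TPM and the cup row in FPKM, so the 2 are not on the same scale. Between the genotypes the sums were higher in zld than in wild type at each shared stage.

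The first question was how each RNA changed with stage. In wild type, with 1 embryo per stage, gnu and png RNA were almost gone by 14E, 4EHP and smg were low, and pum was at 95.8% of its first level. The Pan Gu subunits differed from each other. The catalytic subunit png had 171, 15.3, 4.30, 4.76, 3.37, 3.19 and 2.81 FPKM at cycles 11, 13, 14A, 14B, 14C, 14D and 14E. Most of its loss thus lay between the first embryos of the series, since 8.96% of the level at cycle 11 was left at cycle 13. The activator gnu was at 826, 302, 97.7, 10.8, 17.7, 14.9 and 11.1 FPKM over the same stages. It was lost later, with 36.5% left at cycle 13, 11.8% at 14A and 1.31% at 14B. The activator plu was at 274, 343, 546, 272, 289, 253 and 120 FPKM. It was highest at 14A, at 199% of its level at cycle 11, and 43.8% was left at 14E. The embryo at 14A had the fewest long transcripts of the wild-type embryos (-0.98, against -0.16 at cycle 11), and plu is the shortest member. In the transcript table plu was at 196 TPM at cycle 11 and 232 TPM at 14A, a smaller difference. The size of its peak at 14A is thus uncertain.

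The RNA-binding repressors formed no common pattern. For smg the wild-type levels were 252, 266, 139, 58.2, 50.9, 166 and 23.8 FPKM from cycle 11 to 14E, so the embryo at 14D stood above its neighbours. For brat they were 56.2, 25.9, 5.52, 3.39, 2.42, 3.86 and 11.1 FPKM, with a minimum at 14C (4.31% of cycle 11) and a higher level at 14E. For pum they were 3.60, 7.11, 13.2, 11.4, 6.16, 19.2 and 3.45 FPKM, lowest at both ends of the series. The embryo at 14D, which was high for smg and pum, also had more long transcripts than those at 14A to 14C, as given above.

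Among the particle components, me31B was the most abundant member in every embryo. Its wild-type levels were 3434, 3312, 2714, 2007, 1779, 1631 and 1098 FPKM, lower at each stage than at the one before, and 32.0% was left at 14E. The tral RNA was at 267, 189, 100.5, 105, 112, 261 and 126 FPKM, with 47.0% left at 14E and a high value again at 14D. The cap-binding protein gene 4EHP was at 93.1, 28.5, 15.5, 12.6, 10.02, 13.0 and 6.07 FPKM, with 6.52% left at 14E. Ordered by the share of the cycle 11 level left at 14E, the members ran gnu (1.35%), png (1.65%), 4EHP (6.52%), smg (9.45%), the uncertain cup row (11.5%), brat (19.8%), me31B (32.0%), plu (43.8%), tral (47.0%) and pum (95.8%). With a single embryo per stage, neighbours in this order cannot be separated from differences between embryos.

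**Figure D1:**
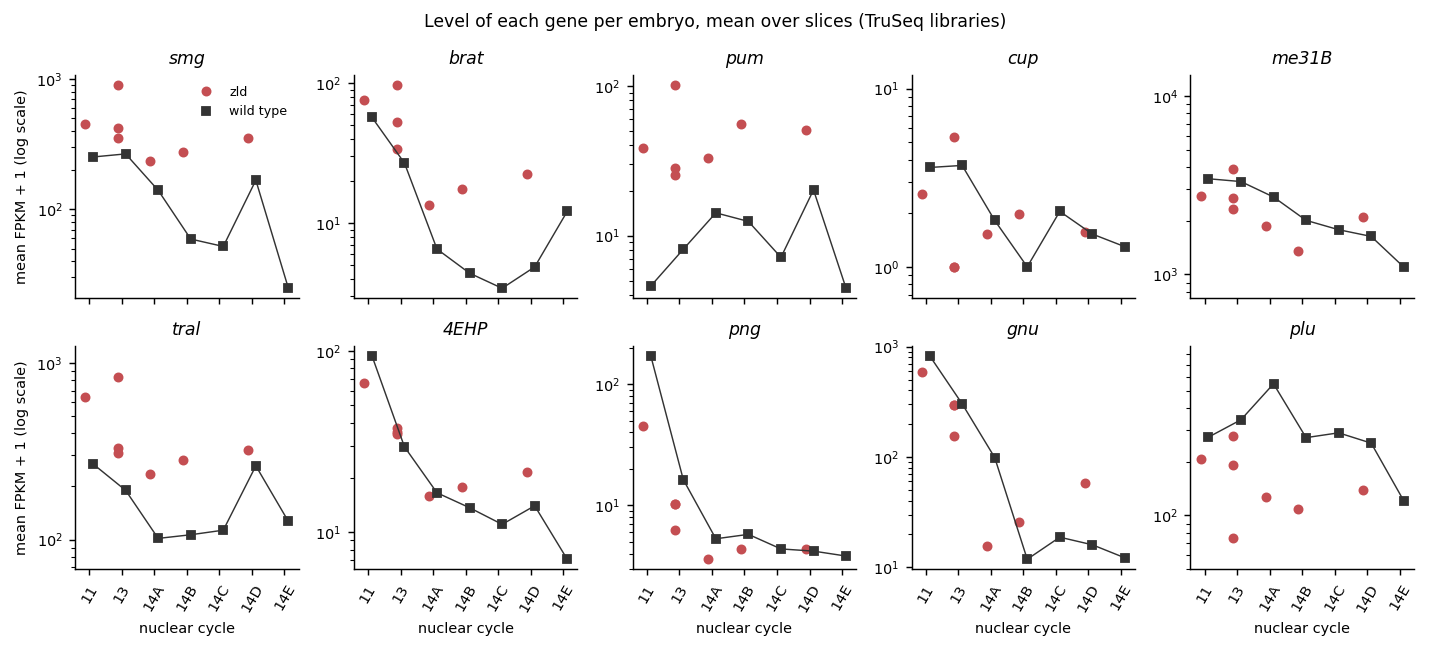
Level of each member in TruSeq libraries, as mean FPKM over slices plus 1 on a log axis, against nuclear cycle. Each red circle is a zld embryo and each black square, joined by lines, a wild-type embryo; the steep early loss of png (171 and 15.3 FPKM in the wild-type embryos at cycles 11 and 13), the later loss of gnu and the zld points above the wild-type line for smg, brat and pum can be seen.

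A linear trend over the 7 wild-type stages was fitted to log2(FPKM + 1) with limma across 6418 genes and adjusted by Benjamini-Hochberg. Over all genes 8.88% rose and 11.7% fell, with a median slope of -0.09 per stage step. Of the members 4 of 10 fell and 0 rose, and their median slope was -0.36. The slope was -1.04 for gnu (SE 0.18, limma adjusted p = 0.0140), -0.74 for png (SE 0.21, limma adjusted p = 0.0427), -0.50 for 4EHP (SE 0.11, limma adjusted p = 0.0221) and -0.27 for me31B (SE 0.06, limma adjusted p = 0.0217). For smg it was -0.46 (SE 0.14, limma adjusted p = 0.0508), for brat -0.45 (SE 0.20, limma adjusted p = 0.136) and for plu -0.19 (SE 0.09, limma adjusted p = 0.136), and these did not pass, nor did pum, tral and cup. The calls rest on few embryos, since the whole count of 1324 calls was 316, 180 and 497 without the embryos at cycles 11, 13 and 14C.

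Single embryos also decided calls for members in this trend. The call for gnu was lost without cycle 13 (-0.996, limma adjusted p = 0.0502). That for me31B was lost without cycle 13 (limma adjusted p = 0.0837), 14C (0.0526) or 14E (0.0747), and that for 4EHP without cycle 11 (-0.32, limma adjusted p = 0.102), 13 (0.0611) or 14C (0.0523). The slope of png was far less steep without cycle 11 (-0.34, limma adjusted p = 0.160), and its call was also lost without cycle 13 (0.0841), 14B (0.0584), 14C (0.0839), 14D (0.0714) or 14E (-0.92, 0.05). Conversely, smg fell past the threshold without 14D (-0.62, limma adjusted p = 0.0141) and brat without 14E (-0.78, limma adjusted p = 0.0423). With an adjustment for transcript length, smg passed (-0.44, limma adjusted p = 0.0392) and me31B did not (-0.13, limma adjusted p = 0.195).

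The same question could be put to replicated embryos in the SMARTseq2 lines, with 6 embryos at cycle 14D and 5 at cycle 13. Here 8 of 10 members fell and 0 rose, the uncertain cup row being counted among the 8, and brat and pum did not pass the test. Over all genes 36.2% fell and 33.2% rose between these stages. In the fit over all 3 lines the Pan Gu subunits fell most, together with 4EHP. This order did not hold in each line. In bcd RNAi the log2 change was -3.73 for smg, against -3.66 for png and -2.55 for plu. The gnu level was 6.16 to 17 FPKM at 14D (median 11.0), against 467 to 2012 FPKM at cycle 13 (median 704). The png level was 2.72 to 19.9 FPKM at 14D (median 4.71), against 68.2 to 182 FPKM at cycle 13 (median 122). The plu level was 13.8 to 120.1 FPKM at 14D (median 67.4), against 218 to 1132 FPKM at cycle 13 (median 491). None of these 3 pairs of ranges overlapped. The highest value of each at cycle 13 was that of the hb RNAi embryo, which had the fewest long transcripts (-2.20). In the transcript table gnu was at 429.5 TPM in that embryo, against 288 to 466 TPM in the others at cycle 13. How far this embryo's recovery of short transcripts enlarged the falls of these short RNAs was not tested. On the log2 scale gnu fell by 6.13 (SE 0.36, limma adjusted p = 2.59e-08), png by 3.93 (SE 0.34, limma adjusted p = 5.78e-07) and plu by 3.20 (SE 0.28, limma adjusted p = 7.16e-07). The gnu change was lower than that of all but 0.0433% of the 6936 genes tested.

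The repressors smg, brat and pum divided. The smg level was 6.45 to 24.3 FPKM at 14D (median 14.95), against 68.0 to 162 FPKM at cycle 13 (median 109), with no overlap, and it fell by 2.90 on the log2 scale (SE 0.31, limma adjusted p = 3.63e-06). For brat the range at 14D was 14.4 to 37.9 FPKM (median 23.1), against 18.7 to 59.0 FPKM at cycle 13 (median 32.0). The ranges overlapped, and the difference of -0.58 did not pass (SE 0.35, limma adjusted p = 0.161). For pum the range at 14D was 3.58 to 19.2 FPKM (median 7.55), against 8.34 to 28.6 FPKM at cycle 13 (median 11.4), again with overlap and without a call (-0.62, SE 0.38, limma adjusted p = 0.160). In the hb RNAi line alone, whose single embryo at cycle 13 had the fewest long transcripts, brat was higher at 14D (0.74), as were pum (0.44) and tral (0.49). Without that embryo brat fell by 1.018 (limma adjusted p = 0.00872) and pum by 0.98 (limma adjusted p = 0.0350). After adjustment for transcript length brat fell by 1.07 (limma adjusted p = 0.00165) and pum by 1.29 (limma adjusted p = 0.00121).

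The particle components me31B, 4EHP, tral and cup passed as lower at 14D, tral with exceptions given here. The me31B level was 673 to 1416 FPKM at 14D (median 917), against 2566 to 3565 FPKM at cycle 13 (median 3013), without overlap, and it fell by 1.58 on the log2 scale (SE 0.16, limma adjusted p = 2.40e-06). The 4EHP level was 10.4 to 22.7 FPKM at 14D (median 17.6), against 115.5 to 289 FPKM at cycle 13 (median 157), without overlap, and it fell by 3.28 (SE 0.23, limma adjusted p = 1.10e-07). The tral level was 89.8 to 159 FPKM at 14D (median 123), against 103 to 351 FPKM at cycle 13 (median 210.3). These ranges overlapped, and tral fell by 0.84 (SE 0.29, limma adjusted p = 0.0202). The tral call was lost without the second bcd RNAi embryo at 14D (-0.77, limma adjusted p = 0.0542), the first 2.4x bcd embryo at cycle 13 (-0.71, 0.0580) or the second at 14D (-0.66, 0.0587), and in the kallisto table (-0.36, 0.519). The uncertain cup row was at 0.328 to 1.3 FPKM at 14D, against 2.50 to 5.19 FPKM at cycle 13, and fell by 1.23 (SE 0.22, limma adjusted p = 0.000272).

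These calls stand against a large change of the whole transcriptome between the stages. The median change over all genes was -0.10. The members' median change was -2.24. For 7 of 10 members (smg, the uncertain cup row, me31B, 4EHP, png, gnu and plu) every embryo at 14D was below every embryo at cycle 13, a pattern that 22.9% of all genes showed. The median share left at 14D ran gnu (1.57%), png (3.87%), 4EHP (11.2%), plu (13.7%), smg (13.8%), me31B (30.4%), cup (34.6%), tral (58.5%), pum (66.1%) and brat (72.2%). gnu, png and 4EHP came first, in the same order as in wild type at 14E, although the stages, kits and genotypes of the 2 series differ.

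**Figure D2:**
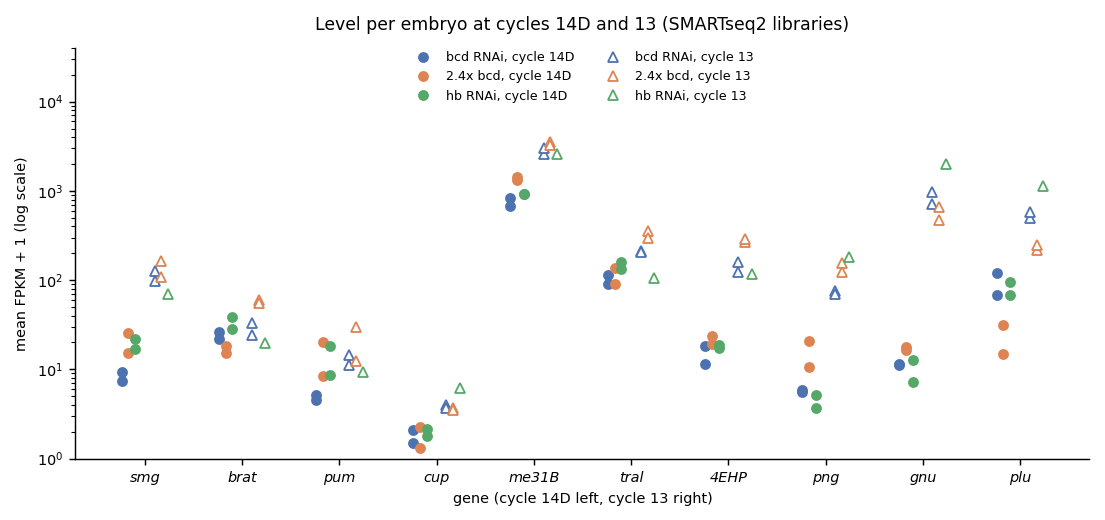
Level of each member per embryo in SMARTseq2 libraries, as mean FPKM over slices plus 1 on a log axis, with cycle 14D (filled circles) left of cycle 13 (open triangles) and lines in colour. The gap is widest for gnu (6.16 to 17 against 467 to 2012 FPKM), and the points of brat and pum at the 2 stages overlap.

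The next question was whether the RNAs persisted in embryos without maternal Zelda, which activates much of the early zygotic genome. At cycle 14 smg, brat and pum were higher in zld than in wild type, plu was lower, and the other members did not pass. For smg the zld embryos at 14A, 14B and 14D had 234, 273 and 350 FPKM, against 139, 58.2 and 166 FPKM in wild type of the same stages. For brat they had 12.5, 16.4 and 21.5 FPKM, against 5.52, 3.39 and 3.86 FPKM in wild type. For pum they had 32.0, 54.3 and 49.8 FPKM, against 13.2, 11.4 and 19.2 FPKM in wild type. The zld and wild-type values of these genes did not overlap, but the share of all genes separated in this way was not counted. On the log2 scale the difference was 1.34 for smg (SE 0.38, limma adjusted p = 0.0328), 1.75 for brat (SE 0.41, limma adjusted p = 0.0149) and 1.57 for pum (SE 0.49, limma adjusted p = 0.0425). Over the 6582 genes tested 18.9% were higher and 3.22% lower in zld, while 3 of 10 members were higher and 1 of 10 lower.

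The whole distribution was shifted towards zld, and more so for long transcripts. The median gene differed by 0.49 in the deposited FPKM, by -0.02 after median-ratio scaling and by 0.75 in the kallisto table. By deciles of transcript length the median ran from -0.20 in the shortest to 1.11 in the longest, the decile that holds smg, brat and pum. Within that decile 35.4% of the other genes had a larger difference than smg, 14.2% than brat and 21.7% than pum. After median-ratio scaling the differences were 0.73 for smg, 1.23 for brat and 0.98 for pum, and none passed (limma adjusted p = 0.246, 0.0982 and 0.221). After adjustment for transcript length they were 0.31 for smg (limma adjusted p = 0.325), 0.68 for brat (0.129) and 0.37 for pum (0.276). How far recovery of long transcripts, rather than their level in the embryo, made up the differences was not tested beyond these values.

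**Figure D3:**
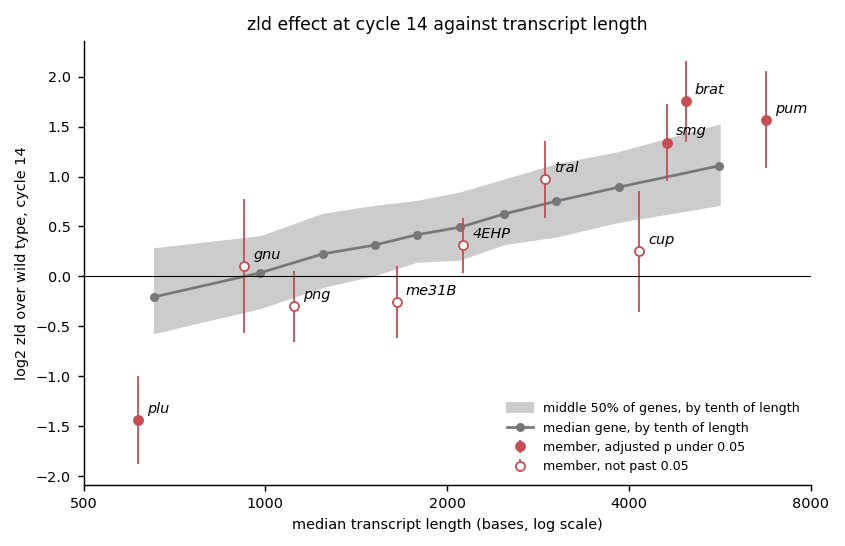
Difference of zld from wild type at cycle 14 (log2) against median transcript length (bases, log axis). Red points with SE bars are the members, filled where the adjusted p was under 0.05; the grey line and band give the median and the middle 50% of all genes by decile of length, rising from -0.20 to 1.11. The members smg, brat and pum lie at the long end and plu below the band at the short end.

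The smallest member, plu, went the other way. It was at 125, 107 and 138 FPKM in zld at 14A, 14B and 14D, against 546, 272 and 253 FPKM in wild type. The values did not overlap, a pattern that was not counted over all genes. The difference was -1.44 (SE 0.44, limma adjusted p = 0.0415) and was kept after adjustment for length (-1.27, limma adjusted p = 0.0030). In its length decile 8.51% of the other genes had a lower value.

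For the other members no difference was shown at cycle 14. The tral level was 235, 282 and 321 FPKM in zld at 14A, 14B and 14D, against 100.5, 105 and 261 FPKM in wild type (0.97, SE 0.39, limma adjusted p = 0.0916). For me31B the levels were 1860, 1346 and 2086 FPKM in zld, against 2714, 2007 and 1631 FPKM in wild type (-0.26, SE 0.36, limma adjusted p = 0.622). For 4EHP they were 14.7, 16.6 and 20.6 FPKM in zld, against 15.5, 12.6 and 13.0 FPKM in wild type (0.31, SE 0.28, limma adjusted p = 0.426). At each of these stages the 3 RNAs were within 3-fold of wild type. The png level was 2.59, 3.39 and 3.36 FPKM in zld, against 4.30, 4.76 and 3.19 FPKM in wild type (-0.30, SE 0.35, limma adjusted p = 0.556). The gnu level was 14.4, 24.9 and 57.0 FPKM in zld, against 97.7, 10.8 and 14.9 FPKM in wild type (0.11, SE 0.67, limma adjusted p = 0.921). gnu was thus lower in zld at 14A and higher at 14B and 14D, and the direction of its mean difference turned with the embryo left out, as it did after median-ratio scaling (-0.49). The directions of me31B (0.28) and png (0.19) turned in the kallisto table and that of 4EHP after median-ratio scaling (-0.27). The cup row differed by 0.25 (limma adjusted p = 0.778).

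Each of the 4 zld calls depended on single libraries. Cycle 14B was left out in both genotypes, which removes the zld library with vfl RNA in the wild-type range and the wild-type embryo with the other carrier. The difference was then 0.91 for smg (limma adjusted p = 0.301), 1.63 for brat (0.128), 1.27 for pum (0.280) and -1.49 for plu (0.191), and none passed. In that fit 167 genes passed, against 1455 with all embryos. Leaving out a single embryo at 14A gave 624 (zld) or 623 (wild type) calls, at 14B 168 or 173, and at 14D 571 or 590, and leaving out the third zld embryo at cycle 13 gave 2283. The smg call was lost without the zld or wild-type embryo at 14A (1.64, limma adjusted p = 0.0646 and 0.0647), 14B (0.91, 0.299 and 0.3) or 14D (1.48, 0.0847 and 0.0843). The brat call was lost without the zld or wild-type embryo at 14B (1.63, limma adjusted p = 0.132 and 0.129) or 14D (1.52, 0.0842 and 0.0816). The pum call was lost without any 1 of the zld embryos at cycles 11, 14A, 14B and 14D or of the 5 wild-type embryos, with limma adjusted p from 0.0511 to 0.284. The plu call was lost without any 1 of these or the first zld embryo at cycle 13, with limma adjusted p from 0.0522 to 0.228. Conversely, tral passed without the third zld embryo at cycle 13 (limma adjusted p = 0.0121), and gnu without the zld or wild-type embryo at 14A (1.499, limma adjusted p = 0.0441 and 0.0439).

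Before cycle 14 a single member passed. At cycles 11 and 13 together 5.32% of all genes were higher and 0.82% lower in zld, and 1 of 10 members was higher and 0 lower. That member was pum, at 37.4 FPKM in zld at cycle 11 and 27.3, 24.5 and 101 FPKM at cycle 13, against 3.60 and 7.11 FPKM in wild type at cycles 11 and 13. All zld values were above both wild-type values, a pattern that was not counted over all genes. The difference was 2.65 (SE 0.53, limma adjusted p = 0.0308). The third zld embryo at cycle 13 was the highest, and also the one with most long transcripts. In the longest decile of transcripts the median difference was 1.44, and 5.88% of the genes there had a larger one than pum. The pum call was lost without any 1 of the zld embryos at cycles 11, 14A, 14B and 14D or of the 5 wild-type embryos, with limma adjusted p from 0.0523 to 0.173, and without cycle 14B in both genotypes (limma adjusted p = 0.0531). The count of 404 calls over all genes was 22 to 85 without any 1 of the same embryos.

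Persistence proper, a zld difference that grew between the early embryos and cycle 14, was tested as the difference of both terms. It was called for 0% of genes in either direction, against 480 genes at an unadjusted p under 0.05, likewise for 0 genes in the kallisto table, and for none of the members. The difference was 0.96 for brat (limma adjusted p = 0.828), 1.01 for png (limma adjusted p = 0.740), 1.10 for the uncertain cup row (limma adjusted p = 0.917) and -1.08 for pum (limma adjusted p = 0.861). At cycle 11 png was at 44.2 FPKM in zld, against 171 FPKM in wild type, and at cycle 13 at 9.19, 9.29 and 5.31 FPKM in zld, against 15.3 FPKM in wild type. For brat the values were 74.8 FPKM in zld at cycle 11, against 56.2 FPKM in wild type, and 32.9, 51.6 and 96.8 FPKM in zld at cycle 13, against 25.9 FPKM in wild type. The early and late differences of brat thus pointed to a smaller loss in zld, but not beyond the spread between embryos. For png both genotypes were at 2.59 to 4.76 FPKM at cycle 14, so its difference cannot tell a smaller loss from a lower start in zld. Leaving out the wild-type embryo at cycle 13 gave 152 calls over all genes, and leaving out the third zld embryo at cycle 13 gave 2.

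The bcd lines allowed a comparison with 4 embryos on each side, between bcd RNAi and 2.4x bcd, in the fit of the SMARTseq2 embryos. In bcd RNAi plu was higher and me31B lower. The plu level was 67.8 and 120.1 FPKM in bcd RNAi, against 30.5 and 13.8 FPKM in 2.4x bcd at 14D, and 491 and 577 FPKM in bcd RNAi, against 218 and 248 FPKM in 2.4x bcd at cycle 13. At both stages the values did not overlap, a pattern that was not counted over all genes. The difference was 1.64 (SE 0.33, limma adjusted p = 0.00702) and stayed past the threshold whichever embryo was left out (1.36 to 1.81), but not in the kallisto table (0.99, limma adjusted p = 0.0643). For me31B the level was 673 and 836 FPKM in bcd RNAi, against 1320 and 1416 FPKM in 2.4x bcd at 14D, and 2616 and 3013 FPKM in bcd RNAi, against 3565 and 3256 FPKM in 2.4x bcd at cycle 13. Here too the values did not overlap, with a difference of -0.57 (SE 0.18, limma adjusted p = 0.0450). That call was lost without any 1 of the 8 embryos of these lines (limma adjusted p from 0.0623 to 0.153) and with a replicate block (0.0605). Over all genes 7.96% were higher and 12.4% lower in bcd RNAi, and 1 of 10 members went each way. The count of 1414 calls was 559 to 882 without any 1 of 7 embryos of these lines, the second 2.4x bcd embryo at 14D being the exception, and 2866 without the hb RNAi embryo at cycle 13.

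Another pair of members came close to the threshold. The difference was -1.16 for png (SE 0.39, limma adjusted p = 0.0526) and -0.78 for 4EHP (SE 0.27, limma adjusted p = 0.0561). At 14D png was at 4.80 and 4.61 FPKM in bcd RNAi, against 9.52 and 19.9 FPKM in 2.4x bcd, and at cycle 13 at 74.0 and 68.2 FPKM in bcd RNAi, against 122 and 156 FPKM in 2.4x bcd. For 4EHP the values at cycle 13 were 122 and 157 FPKM in bcd RNAi, against 263 and 289 FPKM in 2.4x bcd. Both passed after adjustment for transcript length (png -1.31, limma adjusted p = 0.0103; 4EHP -0.58, limma adjusted p = 0.0438) and without the hb RNAi embryo at cycle 13 (limma adjusted p = 0.00312 and 0.00877). The bcd gene was at 0.929 to 9.72 FPKM in bcd RNAi, against 4.21 to 156 FPKM in 2.4x bcd. The mothers of the 2 lines also differed in age, driver and background, which cannot be told apart from bcd dose.

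Slices then showed where each RNA lay. The distance of a gene's profile from a flat one was measured as EMD, the area between cumulative curves on an axis from 0 (anterior) to 1 (posterior), in the 22 embryos with at least 6 slices, and only where a slice reached 15 FPKM. Slices without values were filled along a straight line between their neighbours, and at the ends with the nearest value. A profile was called uniform below 0.04 and patterned above 0.08. In these terms me31B was flat nearly everywhere: it was uniform in 3 of 4 zld embryos, in 11 of 11 SMARTseq2 embryos and in 7 of 7 wild-type embryos, where its EMD was 0.0040 to 0.0120. Most other members were flat as well. In wild type smg was uniform in 5 of 7 embryos, brat in 3 of 3, pum in 2 of 3, tral in 5 of 7, 4EHP in 5 of 6 and plu in 6 of 7, and none of these was patterned in a wild-type embryo. Over all genes at this level 55.7 to 94.7% were uniform and 0.896 to 16.7% patterned in a wild-type embryo.

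The gnu RNA was patterned in 1 of 4 zld embryos, 3 of 11 SMARTseq2 embryos and 4 of 7 wild-type embryos, and png in 2 of 10 SMARTseq2 embryos and 2 of 3 wild-type embryos that reached 15 FPKM. In SMARTseq2 embryos plu was also patterned in 2 of 11 and 4EHP in 1 of 11. The uncertain cup row reached 15 FPKM in 1 wild-type embryo, where it was patterned (EMD 0.329). A low RNA enters these counts through its highest slice, which also makes its profile uneven, so such calls follow in part from the filter. In wild type at 14B the highest png slice was at 16.2 FPKM and the median slice at 2.80 FPKM. For the cup row at cycle 13 these were 17.6 and 0 FPKM. In wild type gnu was flat at cycle 11 (EMD 0.0066) and had an EMD of 0.225 at 14B, where only 7 of 13 slices had values and the rest were filled. At 14B, 14C, 14D and 14E it was at 44.2, 70.2, 23.7 and 51.5 FPKM in the posterior tip, the slices from 0.9 of the length, against 5.23, 11.8, 14.4 and 6.10 FPKM in the middle. The tip was higher in 4 of 4 embryos, by 2.23 on the log2 scale (SE 0.41, limma adjusted p = 0.0425). Of all genes 0.696% were higher and 0.613% lower in the tip, and of the 9 members tested 1 was higher and 0 lower. The call was lost without the embryo at 14B (2.01, limma adjusted p = 0.247), 14C (2.14, 0.106) or 14E (2.01, 0.202), and the count of 79 calls was 24 without 14B, 41 without 14C, 148 without 14D and 29 without 14E. The png RNA was at 16.2 FPKM in the tip at 14B, against 2.86 FPKM in the middle, but over 4 embryos the difference of 0.91 did not pass (SE 0.40, limma adjusted p = 0.321), nor did that of 4EHP (0.69, SE 0.35, limma adjusted p = 0.402).

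**Figure D4:**
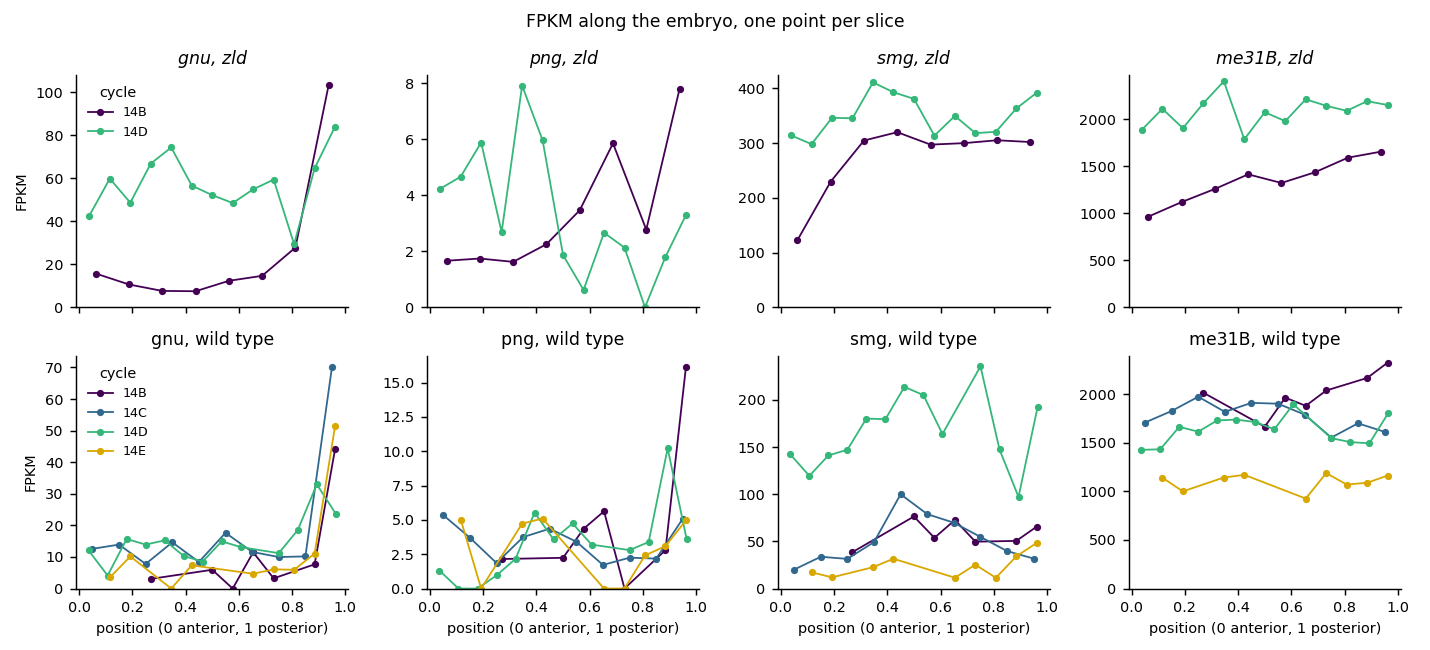
FPKM of gnu, png, smg and me31B along the embryo (position 0 anterior, 1 posterior), 1 point per slice and 1 line per embryo, with zld at 14B and 14D above and wild type at 14B to 14E below. The last slice holds most gnu in wild type at 14B, 14C and 14E (44.2, 70.2 and 51.5 FPKM), whereas me31B is high along the whole length.

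Pole cells, the germline precursors, form at this tip. RNA of pgc, a germline gene that silences transcription in pole cells, was at 1889, 3307, 50.7 and 1445 FPKM in the tip of wild type at 14B, 14C, 14D and 14E, against 16.1, 6.08, 4.29 and 1.53 FPKM in the middle. The tip at 14D was thus poor in pgc, and it was also the one with the smallest difference for gnu (0.68, against 2.86, 2.48 and 2.89 at 14B, 14C and 14E). Of the 4 pole cell markers examined pgc (7.03, limma adjusted p = 0.00528) and nos (6.42, limma adjusted p = 0.00976) were higher in the tip, while gcl (2.11, limma adjusted p = 0.0780) and osk (0.54, limma adjusted p = 0.531) did not pass. The share of the pole cells in the gnu difference was not tested.

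The zld embryos were read in the same way. At 14B gnu was at 103 FPKM in the tip and 13.4 FPKM in the middle, with 2543 FPKM of pgc in the tip. At 14A it was at 17.7 FPKM in the tip and 15.4 FPKM in the middle, with 6.72 FPKM of pgc. At 14D it was at 84.0 FPKM in the tip and 55.9 FPKM in the middle, with 11.3 FPKM of pgc. The higher gnu level of zld at 14D was thus found along the length and not in the tip alone.

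In the SMARTseq2 embryos at 14D the tip differed by 1.47 for gnu (SE 0.53, limma adjusted p = 0.199), by 0.56 for plu (SE 0.40, limma adjusted p = 0.495) and by 0.49 for png (SE 0.55, limma adjusted p = 0.677), and 0 of 9 members passed, with gnu the 1 member at an unadjusted p under 0.05, against 0.751% of genes higher and 1.04% lower. The embryos varied widely. In the second 2.4x bcd embryo gnu was at 158 FPKM in the tip and 6.06 FPKM in the middle, png at 93.8 FPKM in the tip and 14.9 FPKM in the middle and plu at 81.8 FPKM in the tip and 9.09 FPKM in the middle, with 1680 FPKM of pgc in the tip. In the first bcd RNAi embryo gnu was at 36.9 FPKM in the tip and 7.11 FPKM in the middle, with 733 FPKM of pgc in the tip. In the second it was at 9.53 FPKM in the tip and 9.87 FPKM in the middle, with 17.1 FPKM of pgc in the tip. The first and second hb RNAi embryos had 423 and 592 FPKM of pgc in the tip. Their highest gnu slices, at any position, were only at 31.2 and 23.8 FPKM, with medians of 9.43 and 2.235 FPKM. The first 2.4x bcd embryo had 168 FPKM of pgc in the tip, and its highest gnu slice (148 FPKM) lay away from it. The second 2.4x bcd embryo had the largest difference of the 6 for all 3 Pan Gu subunits (4.496 for gnu, 2.58 for png and 3.04 for plu). The count of 124 calls over all genes was 59 without the first bcd RNAi embryo, 52 without the first 2.4x bcd embryo and 47 and 55 without the first and second hb RNAi embryos.

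**Figure D5:**
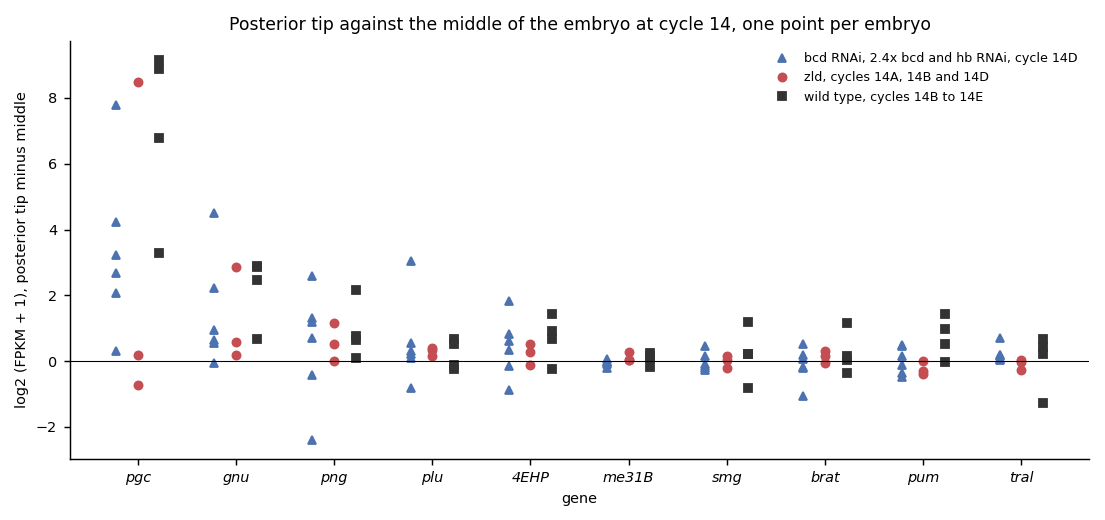
Posterior tip minus middle on the scale of log2(FPKM + 1), 1 point per embryo at cycle 14, for pgc and the members other than cup. Triangles are the bcd RNAi, 2.4x bcd and hb RNAi embryos, circles zld and squares wild type; gnu is above 0 in 4 of 4 wild-type embryos (0.68 to 2.89), and me31B stays near 0.

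No difference between the ends of the axis passed for a member. The axis was cut into 3 equal parts, and the posterior part, which includes the tip, was set against the anterior part in the 7 wild-type embryos across 6418 genes, of which 0.0156% were higher and 0.125% lower, and 0 of 10 members passed in limma, against 2 at an unadjusted p under 0.05. These were gnu, at 0.92 (SE 0.24, limma adjusted p = 0.171), and png, at 0.68 (SE 0.26, limma adjusted p = 0.330). The 9 calls over all genes were 73 without the embryo at cycle 11 and 1 to 3 without any other. At cycle 13 png was at 32.8 FPKM in the tip of wild type and 6.55 FPKM in the anterior part, so its remaining RNA lay towards the posterior in that embryo.

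Genes that act with the members were followed as lists, whose counts stand beside the shares of all genes: 18.9% higher and 3.22% lower in zld at cycle 14, 33.2% up and 36.2% down at 14D in the SMARTseq2 lines, and 8.88% up and 11.7% down over the wild-type stages. Of the 6 CCR4-NOT subunits, the deadenylase that Smaug recruits, 3 were higher in zld at cycle 14 and 0 lower (Rga 1.60, the catalytic subunits twin 1.38 and Pop2 1.24), with a list median of 1.30, against 0.49 over all genes. After median-ratio scaling 0 of 6 passed, and after adjustment for transcript length only Pop2 did (0.78, limma adjusted p = 0.00884), where 3.56% and 6.34% of all genes were higher. Between cycle 14D and 13 in the SMARTseq2 lines 1 of 6 rose (Not1 1.73) and 2 of 6 fell (twin -1.96, Pop2 -1.54), with a median of -0.13. Over the wild-type stages 1 of 6 fell (Not3 -0.33) and 0 rose.

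Of the 4 decapping and decay genes in the table (Dcp1 and Dcp2 were not analysed here), 2 were higher in zld at cycle 14, the exonuclease gene pcm (2.15) and Ge-1 (1.35), and 0 were lower. The pcm call was kept after median-ratio scaling and after adjustment for transcript length (1.05, limma adjusted p = 0.0239), and the Ge-1 call was lost in both (limma adjusted p = 0.254 and 0.373). Patr-1, a decapping activator, rose at 14D in the SMARTseq2 lines (2.42) and over the wild-type stages (0.26), 1 of 4 in each, and 0 fell. Of the 6 particle partners in the table (Bic-C was not analysed here), bel (2.40) was higher in zld and 0 were lower. The bel call was lost after median-ratio scaling (limma adjusted p = 0.0523) and kept after adjustment for transcript length (0.0228). In the SMARTseq2 lines 2 of 6 rose at 14D, AGO1 (2.29) and pAbp (1.51), and 2 fell, exu (-3.14) and eIF-4E (-1.94), and over the wild-type stages AGO1 alone rose (0.34).

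Ubiquitin ligase parts known to act on the repressor proteins were followed as well. The ligase subunit gene muskelin fell over the wild-type stages (-0.70) and at 14D in the SMARTseq2 lines (-2.94), and was higher in zld at cycle 14 (1.87). The F-box gene slmb, whose product acts on Smaug, fell in the SMARTseq2 lines (-0.88) and was higher in zld (1.05). Both zld calls were lost after median-ratio scaling (limma adjusted p = 0.0761 and 0.372) and after adjustment for transcript length (0.0603 and 0.735). RanBPM did not pass over the wild-type stages (-0.02), at 14D (0.71) or in zld at cycle 14 (0.90).

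Of 8 known target mRNAs of these repressors 7 fell and 0 rose at 14D in the SMARTseq2 lines. Among those that fell were twe (-4.27), which encodes a maternal Cdc25 phosphatase, bcd (-3.37), Hsp83 (-2.63) and nos (-2.58). The exception, hb, which is also zygotic, was at 0.70 without passing. Both bcd and hb were themselves manipulated in these lines, and how far this entered their changes was not tested. The nos level at cycle 13 differed between the lines. It was at 2.86 and 2.27 FPKM in bcd RNAi and 9.55 FPKM in hb RNAi, against 293 and 156 FPKM in 2.4x bcd. The nos change of -2.58 thus pools lines that started at unlike levels. Over the wild-type stages 3 of 8 fell and 0 rose (stg -0.76, CycB -0.39, CycA -0.23). In zld at cycle 14 the same target list had 1 of 8 higher (stg 1.15, limma adjusted p = 0.0337) and 0 lower, with a median of 0.54, against 0.49 over all genes, and stg did not pass after median-ratio scaling (0.282) or adjustment for transcript length (0.419).

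Of 4 zygotic cellularization genes 3 were lower in zld at cycle 14 (Sry-alpha -4.10, bnk -3.89, slam -2.05) and the other, nullo, was at -1.41 without passing. They were meant as a check of stage. They cannot serve as one here, since these embryos lack maternal Zelda, which activates much of the early zygotic genome. At cycles 11 and 13 the list median was already -2.46, with 2 of 4 lower, against 0.82% of all genes. Without cycle 14B in both genotypes, where 1.41% of all genes were higher and 1.15% lower in zld, bnk was still called (-3.63, limma adjusted p = 0.0481), Sry-alpha (-3.96, 0.0562) and slam (-2.03, 0.161) were not, and each of the zld calls for Rga, twin, Pop2, pcm, Ge-1, bel, muskelin, slmb and stg was lost, with limma adjusted p from 0.0877 (Pop2) to 0.260 (Ge-1).

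Profiles over the 14 zld and wild-type embryos were last compared with those of 4154 other genes (4155 for cup) at 15 FPKM or more, as Pearson correlations of log2(FPKM + 1). These points share libraries, stages and the recovery of long transcripts, so the values are descriptions. The nearest gene was CG8841 for smg (r = 0.99), spd-2 for brat (0.98), app for pum (0.97), Ca-P60A for tral (0.97), CG3831 for 4EHP (0.98), CG5194 for png (0.98), fu12 for gnu (0.98) and CG40191 for me31B (0.96). For cup no gene exceeded 0.69 (CG17514). The profile of plu was the least common, since only 8 genes exceeded 0.9 with it, CG14818 first (0.97), against 323 genes with 4EHP. Among the members 4EHP and gnu (0.92), 4EHP and png (0.87), smg and tral (0.86) and me31B and gnu (0.85) were closest, while plu was at -0.56 with pum and -0.55 with tral. Within the Pan Gu kinase plu was at 0.28 with png and 0.23 with gnu, so the 3 subunit RNAs did not share 1 profile.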

How the data were processed

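The authors aligned reads with STAR 2.3.0.1 to FlyBase r6.03, discarded reads that could not be assigned between fly and carrier, removed slices with few reads, and deposited FPKM per gene and slice from Cufflinks 2.2.1. A second deposited table holds TPM per transcript, made with kallisto 0.42 according to the submitters' processing notes; its columns are named FPKM but all sum to the same total. Of its 30385 transcripts 30048 matched the annotation. A slice column of no listed sample (1) was not used.

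FPKM were averaged over the slices of an embryo. Genes with a mean of at least 1 FPKM were fitted as log2(FPKM + 1) with limma 3.58.1 (R 4.3.3; lmFit, eBayes with trend), with two-sided tests and Benjamini-Hochberg adjustment over all genes tested, at 0.05. The wild-type trend used stage order, the zld fit stage and a zld term for cycles 11 and 13 and another for cycle 14, and the SMARTseq2 fit line and stage. Tip and posterior differences were log2 ratios per embryo. Labels do not say whether embryos of a group shared parents, so p-values measure the spread between embryos. Depth was estimated from the FPKM worth 1 fragment on 2650 genes of at least 1500 bases, and on simulated slices 100% of 20 estimates came within 1.25 times the truth; counting errors cover counting only. Transcript lengths were found for 97.8% of symbols in release 6 (Ensembl BDGP6 annotation), and the length adjustment removed a lowess curve (span 0.3) per embryo. The limma steps were tested on simulated data.

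The members and lists were chosen with earlier results of these data known. A gene of the related lists is not reported here. All 10 members were tested in each comparison where they passed the filter, and effects are printed for all 10 for zld at cycle 14 and the SMARTseq2 stage change and otherwise for those called and some that were not; the nearest gene was the one of highest correlation. Alternatives were the kallisto table, pseudocounts of 0.1 and 5 FPKM, no filter, median-ratio scaling, no terminal slices, carrier, cycle 14B left out, slopes, a replicate block, other regions and each embryo left out. The adjustments for transcript length were chosen after seeing the data. Python 3.11.15, numpy 2.4.6, pandas 2.3.3 and matplotlib 3.10.9 were used.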

Additional observations from a re-analysis of the deposited data

How the results depend on the processing

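Counts of genes called moved as follows. The wild-type trend (1324) gave 207 in the kallisto table, 156 with Saccharomyces cerevisiae carrier only and 180 to 1192 with an embryo left out. The zld difference at cycle 14 (1455) gave 418 in the kallisto table, 899 at pseudocount 5, 731 after median-ratio scaling, 167 without cycle 14B, 242 adjusted for length without 14B, and 168 to 2283 with an embryo left out. The zld difference at cycles 11 and 13 (404) gave 44 in the kallisto table, 25 at pseudocount 5, 10 without a filter, 30 after median-ratio scaling, 24 without terminal slices, 245 adjusted for length, 41 without 14B, 146 adjusted without 14B, 120 adjusted without the third zld embryo at cycle 13, and 22 to 549 with an embryo left out. The change of the zld difference (0) gave 2 at pseudocount 5, 47 without a filter, 1 after median-ratio scaling, 4 adjusted for length, 2 adjusted without the third zld embryo at cycle 13, 1 with slopes over stage order, and 0 to 152 with an embryo left out. The SMARTseq2 stage change (4810) kept within 1.5 times throughout (4482 to 4938 with an embryo left out). The bcd RNAi difference (1414) gave 783 without a filter, 2562 adjusted for length without the hb RNAi embryo at cycle 13, and 559 to 2866 with an embryo left out. The posterior part (9) gave 1 in the kallisto table, 1 at pseudocount 0.1, 0 without a filter, 20 with the axis cut in 2, and 1 to 73 with an embryo left out. The wild-type tip (79) gave 47 at pseudocount 0.1, 0 without a filter and 24 to 148 with an embryo left out, and the SMARTseq2 tip (124) gave 24 without a filter, 40 with the last slice only and 47 to 134 with an embryo left out. The causes were not tested.

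Directions under the alternatives were followed for member effects that were called and for some others, not for all. Among those followed, they turned only for the zld difference at cycle 14 of members that did not pass: me31B (0.28) and png (0.19) in the kallisto table, 4EHP (-0.27) and gnu (-0.49) after median-ratio scaling, cup (-0.72) and 4EHP (-0.27) adjusted for length, cup (-0.11) and gnu (-0.41) without 14B, cup (-0.94), 4EHP (-0.25) and gnu (-0.52) adjusted without 14B, and 4EHP (-0.27) adjusted without the third zld embryo at cycle 13. With an embryo left out cup ran from -0.11 to 0.51 and gnu from -0.77 to 1.499. The share of zld calls that were higher was 85.4% as deposited, 32.0% after median-ratio scaling and 39.3% adjusted for length at cycle 14, and 86.6%, 43.3% and 41.2% at cycles 11 and 13. For the wild-type trend it was 43.1% as deposited, 71.0% in the kallisto table, 54.4% after median-ratio scaling and 62.2% adjusted for length. For the SMARTseq2 stage change it was 47.8% as deposited and 62.0% in the kallisto table, and for bcd RNAi 39.0% and 15%, or 49.6% after median-ratio scaling and 52.7% adjusted for length.

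Replicate numbers name separate embryos. The differences between same-numbered embryos correlated at -0.312 to 0.222 over 10 pairs of groups, over 0.1 in 3, so they were not taken as pairs. A replicate block gave 4650 calls for the SMARTseq2 stage change and 1133 for bcd RNAi, and changed only the me31B call (limma adjusted p = 0.0605). Apart from the cup row (0 fragments in 2 zld embryos at cycle 13), depth limits png and gnu most, at 11.8 and 21 fragments in wild type at 14B.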

Other observations

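Annotated isoforms of smg and pum were estimated unlike in the kits. FBtr0290104 made up 35.3 to 79.1% of smg TPM in the 14 TruSeq embryos and 0.0243 to 6.35% in the 11 SMARTseq2 embryos. For pum, FBtr0081992 made up 0 to 17.1% in TruSeq and 26.5 to 59.2% in SMARTseq2 embryos. Kit and genotype cannot be told apart here. In the first 2.4x bcd embryo at 14D a slice at position 0.375, away from the tip, held 148 FPKM of gnu and 253 FPKM of plu.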
